A study of Mus musculus with 4 samples.

Results

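The cytosolic ribosomal protein genes are the 79 protein-coding genes, of 22422 rows in the table, whose mouse symbols name a protein of the large ribosomal subunit (48 genes, Rpl and Rplp) or of the small subunit (31 genes, Rps and Rpsa). The rule uses the symbol alone and no measured value, but the group was picked for description with earlier results of these data known. RNA of whole distal colon was sequenced in 2 wild-type libraries and 2 Elf4fl/fl-Villin-Cre libraries. All mice were females of 6 weeks, and all had received 2% dextran sulfate sodium (DSS), which injures the colonic epithelium and causes colitis, for 5 days. In Elf4fl/fl-Villin-Cre mice, Elf4, an ETS-family transcription factor, carries loxP sites and the villin promoter drives Cre in intestinal epithelium, so other cells of the tissue keep the gene. The design names the strain as C57BL/6, but for Elf4fl/fl-Villin-Cre the strain label has C57BL/8. No library came from mice without DSS, and nothing states what alleles the wild-type mice carried or that replicates were separate animals. The p-values thus rest on the spread among these libraries, which may be technical.

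Ribosomal proteins assemble with ribosomal RNA in the nucleolus into a small subunit, which reads the messenger RNA, and a large subunit, which joins the amino acids. Their messages are among the most abundant of any cell, start with a run of pyrimidines called the 5′ terminal oligopyrimidine (TOP) tract, and are translated together under mTORC1 signalling. In the intestine, crypt cells, plasma cells and other dividing or secreting cells are rich in ribosomes.

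The libraries held between 15885028 and 16425954 reads. Elf4 itself had 1588 and 1938 normalised reads in wild type, against 897 and 758 for Elf4fl/fl-Villin-Cre, and it fell by 1.09 on the log2 scale (limma, adjusted p = 0.0139). A deposited value is a read count multiplied by 1 factor per library, and 1 read counted as 1.03 and 1.05 in wild type, against 0.814 and 0.836 for Elf4fl/fl-Villin-Cre. Most comparisons of these genes turn on that factor, so both raw shares of reads and several scalings are given. The 211 most abundant genes that are not ribosomal protein genes took 32.7% and 32.0% of the reads in wild type, against 23.5% and 25.8% for Elf4fl/fl-Villin-Cre. The share left to all other genes therefore differed between the groups.

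The pyrimidine tract of these messages can be seen at some of the annotated starts. Start windows from RefSeq on GRCm38.p6 were found for 59 of the 79 genes (71 windows, since some genes have several starts). The 30 bases below run from 15 bases before the start to 15 bases from it onward, and capitals mark the longest run of C and T. Rpl24, Rplp0, Rpl7a, Rps24 and Rps27l are shown because they had among the highest or the lowest fold changes of their subunit, and Rps27, Rpl35a and Rps6, chosen after their values were seen, as further examples of the tract. For genes with several starts, the window with the longest run is given.
Rplp0 (chr5:115559452-115559481, plus strand): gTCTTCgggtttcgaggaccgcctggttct
Rpl7a (chr2:26910792-26910821, plus strand): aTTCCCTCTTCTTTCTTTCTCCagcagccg
Rpl35a (chr16:33056467-33056496, plus strand): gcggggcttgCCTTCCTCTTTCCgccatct
Rpl24 (chr16:55966260-55966289, plus strand): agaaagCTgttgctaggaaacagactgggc
Rps24 (chr14:24490663-24490692, plus strand): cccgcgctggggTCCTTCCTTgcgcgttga
Rps27 (chr3:90213634-90213663, minus strand): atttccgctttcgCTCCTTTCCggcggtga
Rps6 (chr4:86857353-86857382, minus strand): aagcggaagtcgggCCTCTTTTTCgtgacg
Rps27l (chr9:66946071-66946100, plus strand): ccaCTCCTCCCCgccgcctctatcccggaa
The longest run was of 21 bases in Rpl7a, 13 in Rpl35a, 10 in Rps6 and 9 in Rps24, Rps27 and Rps27l, against 5 in Rplp0 and 2 in Rpl24. In Rplp0, Rpl24 and Rps27l the marked run lies wholly before the annotated start, and so outside the annotated message. In the 50 bases centred on the start, the letters CTTTC on the sense strand were found in 19 of the 71 windows (26.8%), against 6.75% of all 32851 windows in the RefSeq table. The longer CTCTTTC, which contains no other searched motif than CTTTC, was in 7 windows (9.86%) against 0.682%.

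Elf4 binds the ETS motif, so its core was also counted. CCGGAAG or its reverse complement CTTCCGG stood in 26 of the 71 windows of 300 bases (36.6%), against 8.86% of all windows. Members with the core had a median log2 fold change of 0.18 (25 genes) and members without it 0.25 (34 genes). The 60 bases before the start of Rpl41 and Rps7, chosen after their values were seen because they stood on different sides of 0, show the core in capitals.
Rpl41 (chr10:128549169-128549228, minus strand): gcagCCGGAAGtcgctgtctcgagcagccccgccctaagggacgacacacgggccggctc
Rps7 (chr12:28635954-28636013, minus strand): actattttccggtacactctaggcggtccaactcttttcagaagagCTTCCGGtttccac
Such matches are letters in a window and not bound sites. The other motifs were the YY1 core AAGATGGC or GCCATCTT (9.86% of member windows against 2.75% of all), which can overlap the ETS core by 3 letters, the sense-strand TATAAA (7.04% against 8.32%) and the palindrome CACGTG (11.3% against 7.15%).

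Ribosomal protein genes took a larger share of the reads in Elf4fl/fl-Villin-Cre colon, as did most genes tested. They held 2.27% and 2.07% of the reads in wild type, against 3.11% and 2.87% for Elf4fl/fl-Villin-Cre. Both Elf4fl/fl-Villin-Cre libraries lay above both wild-type libraries. The averages were 2.17% ± 0.145 and 2.99% ± 0.166 (SD, n = 2 per group), a 1.38-fold difference (0.46 on the log2 scale). With library totals made equal, the median log2 fold change over all genes tested was 0.41, and 72.4% of them were above 0. With 2 libraries against 2, the smallest two-sided p of an exact permutation test is 0.333, so no such test could pass and none is given for shares. With the 211 most abundant other genes left out of the total, the share was 3.37% and 3.04% against 4.06% and 3.87%, a 1.24-fold difference. That is 0.31 on the log2 scale, beside 0.27 for the median of all genes when totals leave out ribosomal protein and top genes. In the deposited scaling, the summed normalised reads of the 79 genes were 377016 and 345827 in wild type, against 405247 and 394333 for Elf4fl/fl-Villin-Cre. This 1.11-fold difference is 0.15 on the log2 scale, beside a median of 0.11 over all genes tested. Both denominators kept the groups apart, and the size of the difference depended on them. In whole tissue, a change in the number of cells of a type and a change in RNA per cell cannot be told apart.

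The small subunit genes differed more than the large subunit genes, and this comparison needs no scaling. Large subunit genes held 1.36% and 1.23% of the reads in wild type, against 1.77% and 1.65% for Elf4fl/fl-Villin-Cre, a 1.32-fold difference. Small subunit genes held 0.914% and 0.837% against 1.33% and 1.22%, a 1.46-fold difference. The ratio of large to small subunit reads within a library was 1.48 and 1.47 in wild type, against 1.33 and 1.35 for Elf4fl/fl-Villin-Cre. Replicates differed by far less than groups in this ratio (averages of 1.48 ± 0.0114 and 1.34 ± 0.0157, SD, n = 2 per group). Leaving out the genes with the most extreme values brings the groups closer by construction. Without Rplp0 and Rps27a, the ratio was 1.37 and 1.36 against 1.28 and 1.29. The group means of this ratio differed by a factor of 0.910 with all 79 genes, of 0.941 without those 2 genes, and of 0.965 without Rplp0, Rpl41, Rpl8, Rps24 and Rps27a, a set chosen after their values were seen. As medians over genes, the log2 fold change was 0.16 in the large and 0.22 in the small subunit, a difference of -0.053 that was -0.017 without Elf4fl/fl-Villin-Cre replicate 1.

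**Figure D1:**
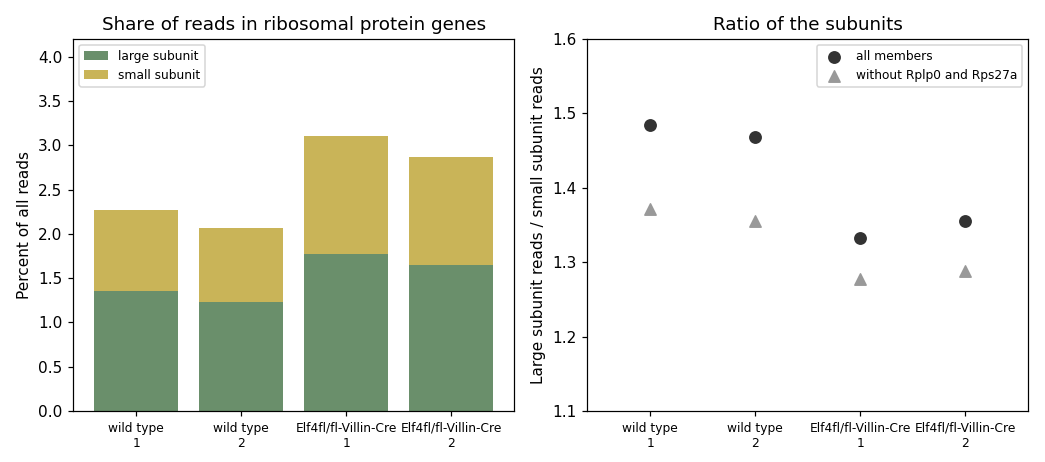
Left, percent of all reads in large subunit (green) and small subunit (yellow) genes, 1 stacked bar per library; right, the ratio of large to small subunit reads with all members (circles) and without Rplp0 and Rps27a (triangles), on an axis that does not start at 0. The Elf4fl/fl-Villin-Cre bars reach 3.11% and 2.87% against 2.27% and 2.07%, and both ratios are lower in the Elf4fl/fl-Villin-Cre libraries.

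Gene by gene, in the deposited scaling, Rps27a was the member that passed the test. The test was limma on log2(normalised reads + 1) with Benjamini-Hochberg adjustment over 22050 genes and a threshold of 0.05. It called 1 member higher and 0 lower, while 6.86% of all genes tested were called higher and 8.60% lower. Before adjustment, 9 members had a p under 0.05 and a higher level, and 0 a lower level. By edgeR's quasi-likelihood test with TMM scaling, 1 of 77 members tested was called higher (9.88% of all genes) and 0 lower (13.5%), with 6 and 0 before adjustment. DESeq2 also called 1 higher (9.25% of all genes) and 0 lower (14.9%), with 5 and 1 before adjustment. No share over all genes is given for the counts before adjustment, so no result about the members is read from them. Among the members, 67 had a fold change above 0 and 12 below, with a median of 0.20, beside a median of 0.11 and 56.2% above 0 over all genes tested. The median standard error of the 76 members with a mean of at least 100 normalised reads was 0.14, and 30 of them had a fold change within their own standard error of 0. Both Elf4fl/fl-Villin-Cre libraries were above both wild-type libraries for 49 of the 79 genes (35.0% of all genes tested), 27 of 48 in the large and 22 of 31 in the small subunit. For 4 genes, all of the large subunit, both were below (27.2% of all genes tested). Replicates also differed in 1 direction across genes: wild-type replicate 1 was above replicate 2 for 70 of the 79 genes, by a median of 0.15 on the log2 scale, and Elf4fl/fl-Villin-Cre replicate 1 above replicate 2 for 58, by a median of 0.055.

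**Figure D2:**
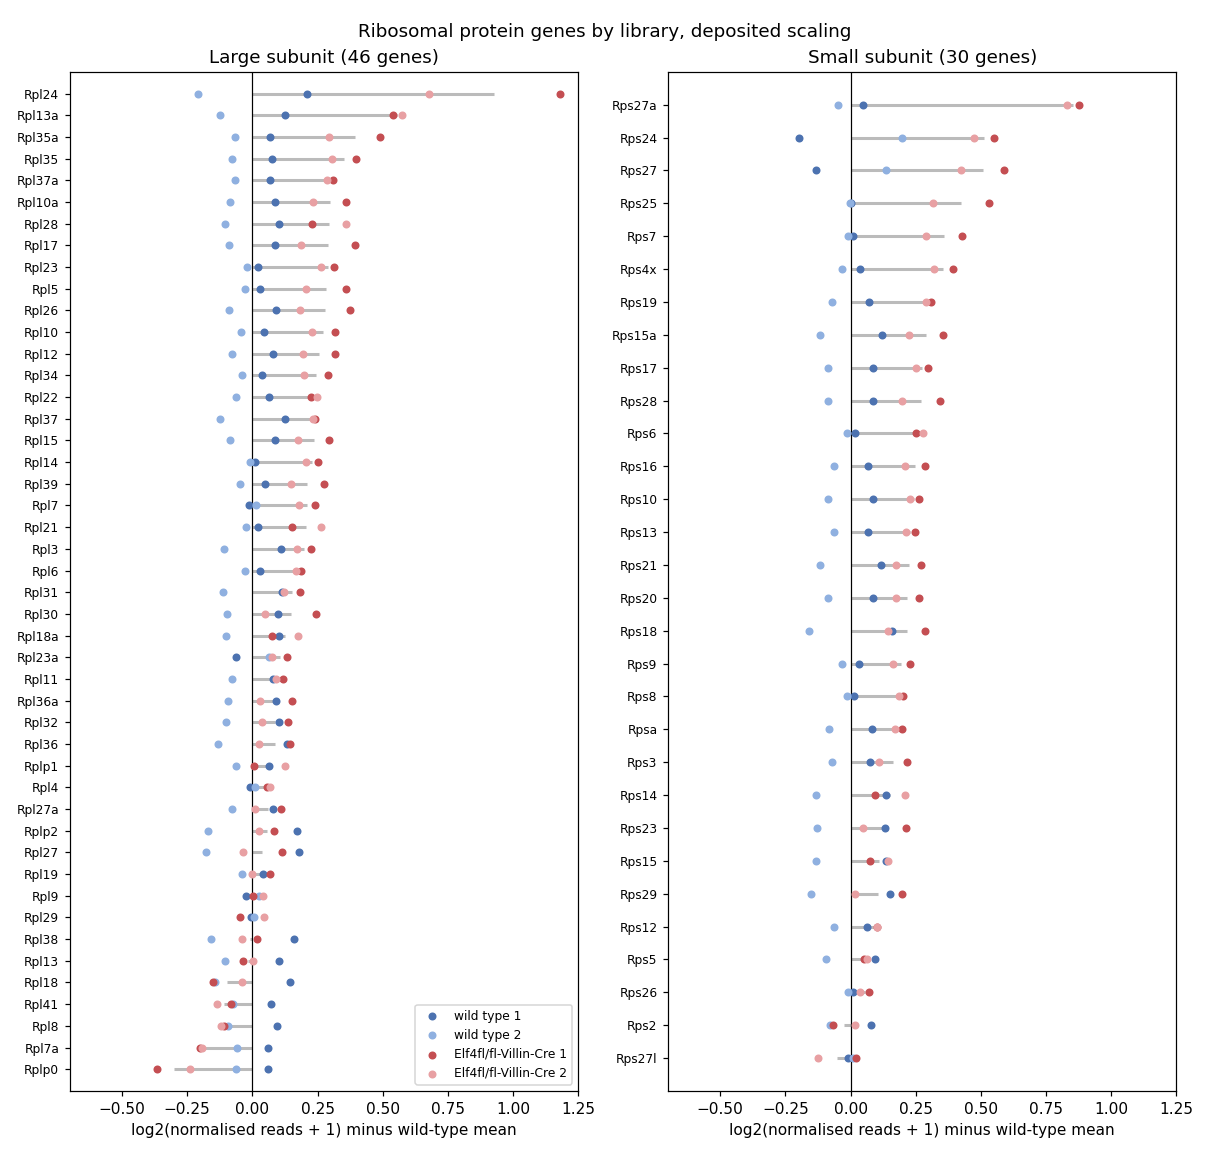
Each row is a gene, ordered by fold change within its subunit, and each point a library: log2(normalised reads + 1) minus the wild-type mean, with wild type in blue and Elf4fl/fl-Villin-Cre in red; the grey line runs from 0 to the log2 fold change. Rpl3l and Rpl39l, with almost no reads, and 1 small subunit gene are left out; Rps27a stands apart in the small subunit with both red points far from both blue ones, and Rplp0 is lowest in the large subunit.

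Rps27a encodes ubiquitin fused to a protein of the small subunit, so its message yields both. It stood at 2620 and 2454 normalised reads in wild type, against 4650 and 4505 for Elf4fl/fl-Villin-Cre (chr11:29545846-29548109, minus strand, mm10). The groups were far apart and the replicates close. The gene rose 1.80-fold, by 0.85 ± 0.13 (SE) on the log2 scale (limma, adjusted p = 0.0142). It was called under each scaling tried, with log2 fold changes from 0.71, where the sum of the 79 genes was held equal, to 1.17 with library totals. With edgeR (adjusted p = 0.0123), leaving out single libraries gave adjusted p-values from 0.0193 to 0.0646, and the call was lost without wild-type replicate 2. With limma, leaving out any 1 library gave 0.0927 to 0.226, in fits where none of the genes tested anywhere in the table was called.

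The choice of scaling set how many other members were called. With library totals, which make each library's reads sum to the same number, 39 of the 79 genes were called higher by limma, 21 of the large and 18 of the small subunit, beside 18.7% of all genes tested, and 0 lower, beside 5.42%. All 79 fold changes were then above 0, with a median of 0.51 beside 0.41 over all genes. edgeR with library totals called 40 of 77 higher and 0 lower, beside 27.1% and 7.65% of all genes, and 38 genes were called by both tools. This count rested on single libraries: with a wild-type library left out, edgeR with library totals called 18 members (without replicate 1, beside 18.6% of all genes higher) and 4 (without replicate 2, 12.7%), and with an Elf4fl/fl-Villin-Cre library left out 1 (without replicate 1, 7.60%) and 10 (without replicate 2, 17.5%). As a share of all reads in the library, both Elf4fl/fl-Villin-Cre libraries were above both wild-type libraries for 76 genes (52.3% of all genes tested) and below for 0 (15.8%), and the groups overlapped for Rplp0, Rpl3l and Rpl39l.

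Scalings that rest on the bulk of genes gave the picture of the deposited values. TMM called 1 member higher and 0 lower (6.42% and 9.18% of all genes), as did the median ratio (6.16% and 10.1%) and the upper quartile (7.22% and 8.94%), with member medians of 0.17, 0.14 and 0.20 and all-gene medians of 0.08, 0.05 and 0.10. Totals without the ribosomal protein and the most abundant genes called 3 higher, Rps27a, Rps27 and Rpl13a, and 0 lower (9.11% and 5.19% of all genes), with medians of 0.37 and 0.27. Holding the sum of the 79 genes equal, by which the members are centred by construction, called 1 higher and 0 lower (5.11% and 10.8% of all genes), with medians of 0.05 and -0.04. In each of these, and with library totals, the member median lay 0.09 to 0.11 above that of all genes. Each uses 1 factor per library, which shifts all genes nearly alike, so this gap is kept by construction. Quantile normalisation, which forces the same distribution on each library, was the exception. It called 16 members higher (7 large, 9 small) and 0 lower (5.58% and 5.90% of all genes), with a member median of 0.53 and an all-gene median of 0.02. Over the deposited scaling and the 6 scalings planned beside it, 61 members were above 0 in all 7 and 18 changed sign. None was below 0 in all 7, which was fixed in advance, since library totals put all 79 above 0. Under the scalings with 1 factor per library, the large subunit median lay 0.05 below the small subunit median, again by construction. With quantile normalisation, where this gap could differ, it lay 0.06 below.

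**Figure D3:**
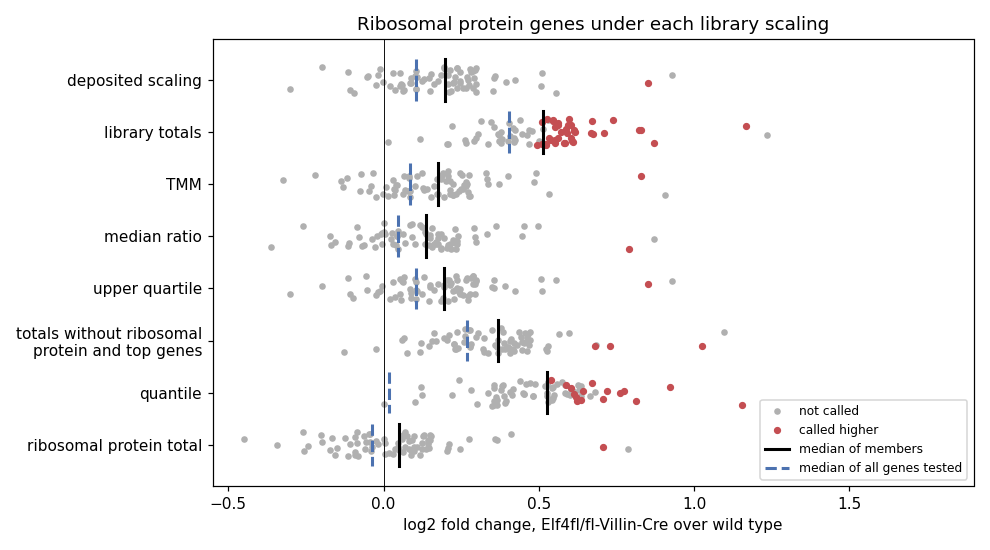
Each point is a ribosomal protein gene (Rpl3l and Rpl39l left out), placed by its log2 fold change, Elf4fl/fl-Villin-Cre over wild type, under the scaling named at the left; red points passed the limma threshold, black lines are member medians and dashed blue lines medians of all genes tested. Member and all-gene medians shift together under all scalings but quantile, as 1 factor per library moves all genes nearly alike. With quantile they are 0.53 and 0.02, and red points number 39 with library totals against 1 in the deposited scaling.

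In the large subunit, Rplp0 had the lowest value. It anchors the stalk that recruits translation factors and was the most read member. It was at 20814 and 19115 normalised reads in wild type, against 15491 and 16900 for Elf4fl/fl-Villin-Cre (chr5:115559467-115563727, plus strand, mm10). The groups did not overlap, but the log2 fold change of -0.30 ± 0.18 (SE) did not pass (limma, adjusted p = 0.297), and it was 0.01 with library totals and 0.12 with quantile normalisation. The other stalk proteins, Rplp1 and Rplp2, which bind to Rplp0 as pairs, had log2 fold changes of 0.07 and 0.05, with overlapping groups. The 3 other genes with both Elf4fl/fl-Villin-Cre libraries below both wild-type libraries were Rpl7a (3218 and 2959 against 2682 and 2699 normalised reads), Rpl8 (8175 and 7177 against 7108 and 7053) and Rpl41 (11398 and 10300 against 10237 and 9871). Rpl8 lies close to the catalytic centre and Rpl41 is the shortest ribosomal protein. Their log2 fold changes were -0.20, -0.11 and -0.11 in the deposited scaling and 0.12, 0.20 and 0.21 with library totals, and none passed under any scaling.

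At the upper end of the large subunit were Rpl24, Rpl13a and Rpl35a. The muscle paralog Rpl3l ranked with them, but by a value that rests on 0 reads in wild-type replicate 2, so its rank is not read. Rpl35a, which helps mature large subunit RNA, was at 2985 and 2724 normalised reads in wild type, against 4005 and 3499 for Elf4fl/fl-Villin-Cre, a log2 fold change of 0.39 (limma, adjusted p = 0.118). Rpl13a, a protein also known for silencing inflammatory messages when released from the ribosome, was at 288 and 242 against 384 and 394, a log2 fold change of 0.56 (limma, adjusted p = 0.0668). Both showed groups that did not overlap and neither passed in the deposited scaling. The Rpl13a row was low for a ribosomal protein gene, at 253 normalised reads per kb of transcript in wild type beside a median of 5550 over the 76 members with enough reads. Rpl24, which bridges the subunits, held 25 and 18 reads in wild type, against 63 and 43 for Elf4fl/fl-Villin-Cre, with a log2 fold change of 0.93 (limma, adjusted p = 0.143). How reads that match several places were counted is not given in the sources used here, so these low rows may not hold all reads of their genes. Rpl5 and Rpl11, which together can bind and hold back the p53 ligase Mdm2, had log2 fold changes of 0.28 and 0.10 (limma, adjusted p = 0.229 and 0.654).

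In the small subunit, the genes next to Rps27a were Rps24, Rps27 and Rps25. Rps24, needed to process small subunit RNA, was at 5378 and 7074 normalised reads in wild type, against 9030 and 8565 for Elf4fl/fl-Villin-Cre, a log2 fold change of 0.51 (limma, adjusted p = 0.113). Rps27, a zinc finger protein, was at 2326 and 2804 against 3844 and 3427, also 0.51 (limma, adjusted p = 0.0776). Rps25, which some viral RNAs need to start translation, was at 4240 and 4231 against 6118 and 5270, a log2 fold change of 0.42 (limma, adjusted p = 0.104). In all 3 the groups did not overlap. With library totals all 3 passed, at 0.83, 0.82 and 0.74 (limma, adjusted p = 0.0245, 0.0185 and 0.0219). In wild type, Rps24 and Rps27 were lower in replicate 1, against the direction of most members.

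Genes at the low end of the small subunit lay near 0 and not below it by more than their error. Rps27l, Rps2 and Rps26 had log2 fold changes of -0.05, -0.03 and 0.05 in the deposited scaling and of 0.26, 0.29 and 0.37 with library totals. Rps2 lies where the messenger RNA enters and Rps26 where it leaves. Rps27l, a p53-induced paralog of Rps27, was at 1133 and 1146 normalised reads in wild type, against 1156 and 1046 for Elf4fl/fl-Villin-Cre, and the groups overlapped. Rps6, the small subunit protein phosphorylated downstream of mTORC1, had 5213 and 5106 against 6136 and 6261, a log2 fold change of 0.26 (limma, adjusted p = 0.234). Rpsa, also known as the laminin receptor, had a log2 fold change of 0.18 and the X-linked Rps4x of 0.35 (limma, adjusted p = 0.479 and 0.165).

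Per kb of transcript, the most abundant large subunit genes in wild type were Rplp1, Rpl41, Rplp0, Rpl13 and Rpl34, at 22342, 19943, 14702, 10403 and 9326 normalised reads per kb. The most abundant of the small subunit were Rps14 (14011), Rps15 (11472), Rps9 (9124), Rps4x (8538) and Rps18 (8057). Subunit medians on this scale were close, at 5542 for the large and 5877 for the small subunit. These levels depend on the transcript model used for length, which was long for Rps15a and Rps20 (5130 and 3706 bases). Across the 76 members with a mean of at least 100 normalised reads, the log2 fold change had a Pearson correlation of -0.21 with the log2 mean level over both groups, of -0.35 with the log2 wild-type level per kb (wild type is also the denominator of the fold change), of 0.08 with transcript length and of -0.05 with the number of exons, given as descriptions across genes that share the same 4 libraries.

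As a share of the ribosomal protein reads alone, a few large subunit genes held less of the pool in Elf4fl/fl-Villin-Cre colon and several small subunit genes more. Rplp0 held 5.52% and 5.53% of these reads in wild type, against 3.82% and 4.29% for Elf4fl/fl-Villin-Cre, 1.47 percentage points less on average. Rpl41 held 3.02% and 2.98% against 2.53% and 2.50%, and Rpl8 2.17% and 2.07% against 1.75% and 1.79%. On the other side, Rps27a held 0.695% and 0.710% against 1.15% and 1.14%, and Rps4x 2.26% and 2.35% against 2.69% and 2.63%. Replicates agreed closely for these 5 genes compared with the distance between the groups. They did not for Rps24, which also gained: it held 1.43% and 2.05% in wild type, against 2.23% and 2.17% for Elf4fl/fl-Villin-Cre. In this share both Elf4fl/fl-Villin-Cre libraries were above both wild-type libraries for 19 large and 17 small subunit genes and below for 13 large and 6 small subunit genes. The same counts over all genes were not made on this scale, so no result about the members is read from them. Shares sum to a fixed total, so a lower share of Rplp0 raises the others.

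**Figure D4:**
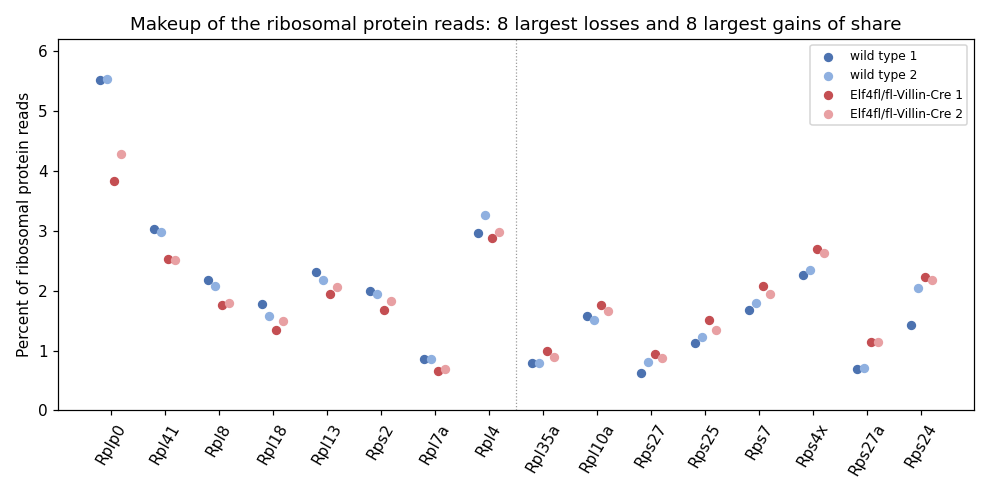
Percent of all ribosomal protein reads held by the 8 genes with the largest drop in mean share (left of the dotted line) and the 8 with the largest gain (right), 1 point per library, wild type in blue and Elf4fl/fl-Villin-Cre in red. Rplp0 goes from 5.52% and 5.53% to 3.82% and 4.29%, and Rps27a from 0.695% and 0.710% to 1.15% and 1.14%.

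Tissue-restricted paralogs were barely read. Rpl3l, known from heart and skeletal muscle, held 9 and 0 reads in wild type, against 6 and 6 for Elf4fl/fl-Villin-Cre, and Rpl39l, known from testis, 1 and 3 against 1 and 4, so no fold is read from them. The symbol pattern misses 6 proteins of the same ribosome, and none of the 6 passed in the deposited scaling. Rps3a1, of the small subunit, was at 10404 and 10030 normalised reads against 13238 and 12482, a log2 fold change of 0.33 (limma, adjusted p = 0.205). Fau, a ubiquitin-like fusion to a small subunit protein, had a log2 fold change of 0.05 and Rack1, a signalling scaffold on the small subunit, of 0.04. The paralogs Rpl22l1 and Rpl36al had 0.46 and 0.99 (limma, adjusted p = 0.141 and 0.178), the latter from 25.7 and 12.6 against 39.1 and 35.1 normalised reads.

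Ribosomal protein genes have many processed copies in the genome, which can take or lend reads. Of the 79 genes, 45 had named pseudogene rows (101 rows), which together held 3.66% to 4.09% as many reads as the members in each library. For 10 genes they made up over 10% of the summed reads of gene and copies, most for Rpl38 (56.4%) and Rpl17 (50.1%). With copies added, the median log2 fold change of the 45 genes was 0.21, as without them. The largest change was in Rps24, whose row Rps24-ps3 held 1595 normalised reads in wild-type replicate 1 and 322, 415 and 393 in the other libraries; adding the copies lowered its log2 fold change by 0.16. Of 99 pseudogene rows tested by limma, 0 rose and 1 fell, beside 6.86% and 8.60% of all genes tested. The row that fell was Rpl10a-ps1, at 295 and 476 normalised reads against 74.1 and 76.1, a log2 fold change of -2.31 (limma, adjusted p = 0.00942). With edgeR and TMM, 1 pseudogene row was called higher and 1 lower, beside 9.88% and 13.5% of all genes. Rps4l, annotated as a processed pseudogene and so no member, was at 243 and 200 against 84.7 and 97.0 and fell by 1.27 (limma, adjusted p = 0.0162).

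Genes that build ribosomes had a median close to that of the members. Of 49 ribosome assembly factors, 3 rose and 2 fell, beside 6.86% and 8.60% of all genes tested, with a median log2 fold change of 0.22. Gnl2 and Gnl3, nucleolar GTPases of large subunit assembly, rose by 0.71 and 0.78, and Npm1, a nucleolar chaperone, by 0.51 (limma, adjusted p = 0.0224, 0.0369 and 0.0476). Eif6, which keeps new large subunits from joining small ones, was at 3968 and 3845 normalised reads against 2274 and 2569 and fell by 0.69 (limma, adjusted p = 0.0242). With library totals 23 of the 49 were called higher and 0 lower, beside 18.7% and 5.42% of all genes tested. Of 15 subunits and factors of RNA polymerase I, which makes ribosomal RNA, 0 passed in either direction by limma or edgeR. Before adjustment, 3 were higher and 0 lower by limma p under 0.05, without a share over all genes to set beside them. The median was 0.34. Taf1a and Taf1b, of its promoter factor, had log2 fold changes of 0.38 and 0.49 (limma, adjusted p = 0.128 and 0.131).

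Other lists of the translation machinery had medians near 0. Their counts stand beside 6.86% of all genes tested that rose and 8.60% that fell. Of 16 elongation factors and other genes with TOP messages, 2 rose and 0 fell, with a median of -0.03. The 2 were Vim, an intermediate filament of mesenchymal cells (3746 and 2998 against 6378 and 6307 normalised reads, log2 fold change 0.92), and Nap1l1, a histone chaperone (0.76; limma, adjusted p = 0.0186 for both). Of 30 initiation factors 0 rose and 1 fell, Eif3c (-0.51; limma, adjusted p = 0.0489), with a median of -0.04. Of 30 genes of mTORC1 signalling and translation control 0 rose and 6 fell, with a median of 0.00. Eif4ebp3, which holds back the cap-binding factor, was at 614 and 794 normalised reads against 92.8 and 139 and fell by 2.61 (limma, adjusted p = 0.00799). Its relative Eif4ebp2 fell by 0.70, and Eif2ak1 and Eif2ak2, stress kinases that slow initiation, each fell by 0.82 (limma, adjusted p = 0.0213, 0.0185 and 0.0177). With library totals 6 of these 30 were called higher and 2 lower, near the shares of all genes (18.7% and 5.42%).

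The ribosomal proteins of mitochondria had a median below that of all genes tested, both in the deposited scaling and with library totals. Of 77 genes 0 rose, beside 6.86% of all genes tested, and 6 fell, near the 8.60% of all genes that were called lower. The median log2 fold change was -0.20, beside 0.20 for the cytosolic ribosomal proteins and 0.11 over all genes tested. Mrpl12 (981 and 1034 against 514 and 564 normalised reads) and Mrps6 fell by 0.90 and 1.05, and Mrps35 and Mrpl51 by 0.88 and 0.67 (limma, adjusted p = 0.0136, 0.0162, 0.0325 and 0.0373). With library totals 2 rose and 2 fell, beside 18.7% and 5.42% of all genes tested. The median was then 0.12, beside 0.41 over all genes tested. In the deposited scaling, nuclear genes of oxidative phosphorylation had 1 of 80 higher and 46 lower, with a median of -0.61. Of 38 proteasome subunits 0 rose and 1 fell, Psmb10, with a median of -0.14. With library totals, 2 of the 80 rose and 21 fell, with a median of -0.29. Among the 38 proteasome subunits 3 then rose and 0 fell, with a median of 0.17. The difference between these lists and the cytosolic ribosomal proteins was not tested.

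Markers of several cell types also differed between the groups, beside 6.86% of all genes tested that rose and 8.60% that fell. All 8 epithelial markers (Epcam, keratins and others) fell, with a median log2 fold change of -1.31 and sums of 236652 and 294991 normalised reads in wild type against 78414 and 93267. Of 6 goblet cell markers 2 fell. All 6 neutrophil markers rose, with sums of 1021 and 519 against 5900 and 5692, and all 6 macrophage markers rose, with sums of 7546 and 6430 against 13268 and 10569. Of 6 T cell markers 0 passed by limma or edgeR, and 0 had a limma p under 0.05 before adjustment. Of 6 B and plasma cell markers 1 rose, Jchain, which made up most of the list's reads. It held 19008 and 14649 of 20878 and 15571 normalised reads in wild type. For Elf4fl/fl-Villin-Cre it held 33603 and 33542 of 36679 and 35406. Of 5 fibroblast markers 2 rose, of 5 erythroid markers 4 rose, of 5 smooth muscle markers 1 fell, and of 4 endothelial and 4 glial and neuronal markers 1 rose in each. None of the listed markers was at 0 in all libraries. The part of these cells in the values of the ribosomal protein genes was not tested.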

How the data were processed

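Distal colon RNA of 4 libraries was analysed, grouped by the genotype labels with replicate numbers from the titles. The deposited table gives a normalised signal per gene made by the authors, not raw counts. Per the submitters' processing notes, reads were placed on mm10. For the aligner, counter, annotation, strandedness and scaling tool, the sources used here give nothing. In each library all values divided by the smallest gave whole numbers (100% of values, tolerance 0.01), so whole reads were recovered from the deposited signal. GENCODE release M21 matched 22376 of 22422 identifiers (99.8%), versions ignored; the length of a gene is that of its principal, best supported, shortest transcript. Genes with a mean of at least 1 were tested by limma (3.58.1, R 4.3.3) with genotype alone and a trended variance, on log2(value + 1); fold changes of low genes are understated on that scale. edgeR (4.0.16) and DESeq2 (1.42.0) were run on recovered reads, and the scripts were tested on simulated data. Other scalings, pseudocounts (0.5 and 5), filters, a replicate block and leaving out each library were tried.

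Named genes were Elf4, the 5 most abundant members per kb and the 4 highest and 4 lowest fold changes in each subunit, members past the threshold, members whose symbol ends in l, 7 members by role, the proteins the pattern misses, and up to 4 past the threshold (otherwise 2) of the other lists. Members and lists were chosen with earlier results of these data known. All per-library columns of the table were used. Some genes that this rule names are not reported here.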

Additional observations from a re-analysis of the deposited data

How the results depend on the processing

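The 1 member called higher in the deposited scaling became 39 with library totals and 3 with totals without ribosomal protein and top genes. It became 16 with quantile normalisation and 40 with edgeR and library totals. The median log2 fold change of 0.20 became 0.51, 0.37, 0.53 and 0.51 in that order, 0.050 where the member sum was held equal (an alternative chosen after seeing the data, as were edgeR with library totals and the edgeR fits with a library left out), and with a library left out 0.13 to 0.26 (limma, deposited scaling) and 0.11 to 0.22 (edgeR with TMM). With edgeR and library totals, leaving out wild-type replicates 1 and 2 and Elf4fl/fl-Villin-Cre replicates 1 and 2 in turn gave 18, 4, 1 and 10 calls, beside 18.6%, 12.7%, 7.60% and 17.5% of all genes called higher, and medians of 0.59, 0.44, 0.45 and 0.58. The large minus small subunit median of -0.05 ranged from -0.066 to -0.017 when a library was left out, nearest 0 without Elf4fl/fl-Villin-Cre replicate 1. The cause was not tested, except that limma with a library left out has 1 residual degree of freedom and called no gene of the whole table. TMM, median ratio and upper quartile scaling, the pseudocounts, the filters and DESeq2 kept the call of Rps27a. The median was 0.14 with the median ratio and 0.13 with DESeq2. No called value changed sign. Among 34 named genes, 9 uncalled fold changes changed sign with library totals and 8 with quantile normalisation. Sign changes numbered 7 where the member sum was held equal and 6 with totals without ribosomal protein and top genes. The median ratio and DESeq2 gave 4 each.

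With a replicate block, 1 member was called, Rps27a, as without it, and the median was 0.20. Deviations of same-numbered libraries correlated at 0.10 over all genes and at 0.25 over the members, and with 2 pairs the numbers are not known to pair the samples, so the block stands here as an alternative. It moved the count over all genes to 2066 higher and 2445 lower from 1512 and 1897.

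With 4 libraries, a member with the median standard error of 0.14 could be called only at a fold change several times that size, and smaller differences were not detectable at this number of libraries.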
